A study of Rattus norvegicus with 16 samples.

Results

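The metabotropic glutamate receptors described here are the products of 6 rat genes, Grm2, Grm3, Grm4, Grm5, Grm7 and Grm8, which the arrays carry on 8 probes. They were chosen by name, as all probes whose transcript accession maps to one of these genes, out of 15715 named genes and 30367 distinct probes. All 8 probes were among the 20278 that were tested, so no member dropped out on low signal. The genes were measured in primary cultures of hippocampal neurons from Sprague-Dawley rats at embryonic day 18, on Agilent arrays with 1 dye (Cy3). Per the labels, cultures were left untreated or given 5 µM hydroxyurea (HU), an inhibitor of ribonucleotide reductase, for 2, 6, 12 or 24 h, with 3 samples in each of the 5 groups. All groups share the strain, the dissociated embryonic culture and the plating in serum, and the labels name no transgene and no other agent. The labels describe a change to medium without antioxidants just before HU was added, and do not say for how long the untreated cultures were in it, so time in that medium and HU cannot be told apart here. The extraction protocol names hippocampal tissue as the RNA source, where the other labels name cultured neurons. The series title concerns whether HU shields such neurons from stress, excitotoxic stress caused by glutamate included, and the comparisons here ask whether the transcripts of these glutamate receptors differed during treatment.

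Metabotropic glutamate receptors are G protein-coupled receptors that adjust how strongly and for how long glutamate synapses act, beside the ion channels that carry the fast current. Group I receptors, of which mGluR5 (Grm5) is the main one in hippocampal pyramidal cells, sit mostly at the edge of the postsynaptic density, couple through Gq to phospholipase C and calcium release, and are known for a form of long-term depression that needs local protein synthesis. Group II receptors (Grm2 and Grm3) and group III receptors (Grm4, Grm7 and Grm8) couple through Gi/o to lower cyclic AMP, and many of them act as autoreceptors that reduce glutamate release. Astrocytes also carry mGluR3 and, when immature, mGluR5.

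The values are log2 of the processed spot signal minus the 75th percentile of the array's non-control spots, so that 0 is the signal of that percentile and a difference of 1 is a doubling. Signals of different probes cannot be set against each other, because each probe binds with its own strength. Untreated replicate 1 was hybridised on 2 arrays, 1 on each of the 2 slides, and its 2 values were averaged, which gave 15 samples from 16 arrays. On each array 64.6% to 70.4% of probes were well above background and 0 spots were saturated. The median coefficient of variation between spots of a probe was 10.3% on the slide 1 array of untreated replicate 1 and 18.6% on the array of HU 12 h replicate 3, and lay from 3.96% to 7.42% on the other 14. The first principal component, with 29.4% of the variance, set HU 12 h replicate 3 apart at 70.7, where the other 14 samples lay between -11.6 and 5.14. Where that sample moved a receptor's 12 h difference by over 1.5 times, or set an end of a range given for the markers, the value without it is given too. Nothing in the labels says that the 3 samples of a group came from separate cultures, so the p-values speak only to the spread among these 15 samples, part or all of which may be technical.

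The cultures carried the neuronal transcripts that their label calls for, and those of other cells as well. All 9 neuron markers on the arrays (Snap25, Nefm, Dcx and Nefl among them) were well above background on every array, as were all 10 markers of GABAergic interneurons. So were 9 of 10 astrocyte markers and 9 of 10 markers of the oligodendrocyte lineage. The same held for 6 of 8 pyramidal markers, 6 of 6 radial glia markers and 5 of 6 fibroblast and pericyte markers. It held for 4 of 10 microglia markers and 3 of 6 endothelial markers. The microglial genes Itgam and Ptprc and the endothelial genes Cldn5, Flt1 and Tek were well above background on 0 of 16 arrays. So was Prox1, a marker of dentate granule neurons. In RNA from a whole culture, fewer cells of a type and less RNA per cell cannot be told apart.

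Transcripts of all 6 receptors were measured in these young cultures. Grm2, Grm3, Grm4, Grm5 and Grm7 were well above background on 16 of 16 arrays, each of them on every probe. Grm8 was well above background on 10 of 12 HU arrays and on 4 of 4 untreated arrays. The 2 arrays without it were HU 12 h replicate 1 and HU 24 h replicate 3.

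No receptor passed the test in any comparison with untreated cultures. With limma's test over 20278 probes and Benjamini-Hochberg adjustment at 0.05, 0 of 8 receptor probes passed at 2, 6, 12 or 24 h or in the mean of the 4 times, and neither did any other probe (0%, 0 of 20278 in each comparison). The 8 probes gave 40 differences from untreated. The smallest unadjusted p among them was 0.0779, so 0 of 40 were under 0.05 before adjustment. Over all probes, the share with an unadjusted p under 0.05 was 0.661% higher and 0.562% lower at 2 h, 0.439% higher and 0.330% lower at 6 h, and 1.40% higher and 0.996% lower at 12 h. It was 0.562% higher and 0.311% lower at 24 h, and 1.38% higher and 0.276% lower in the mean of the 4 times. All of these comparisons use the same 3 untreated samples.

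**Figure D1:**
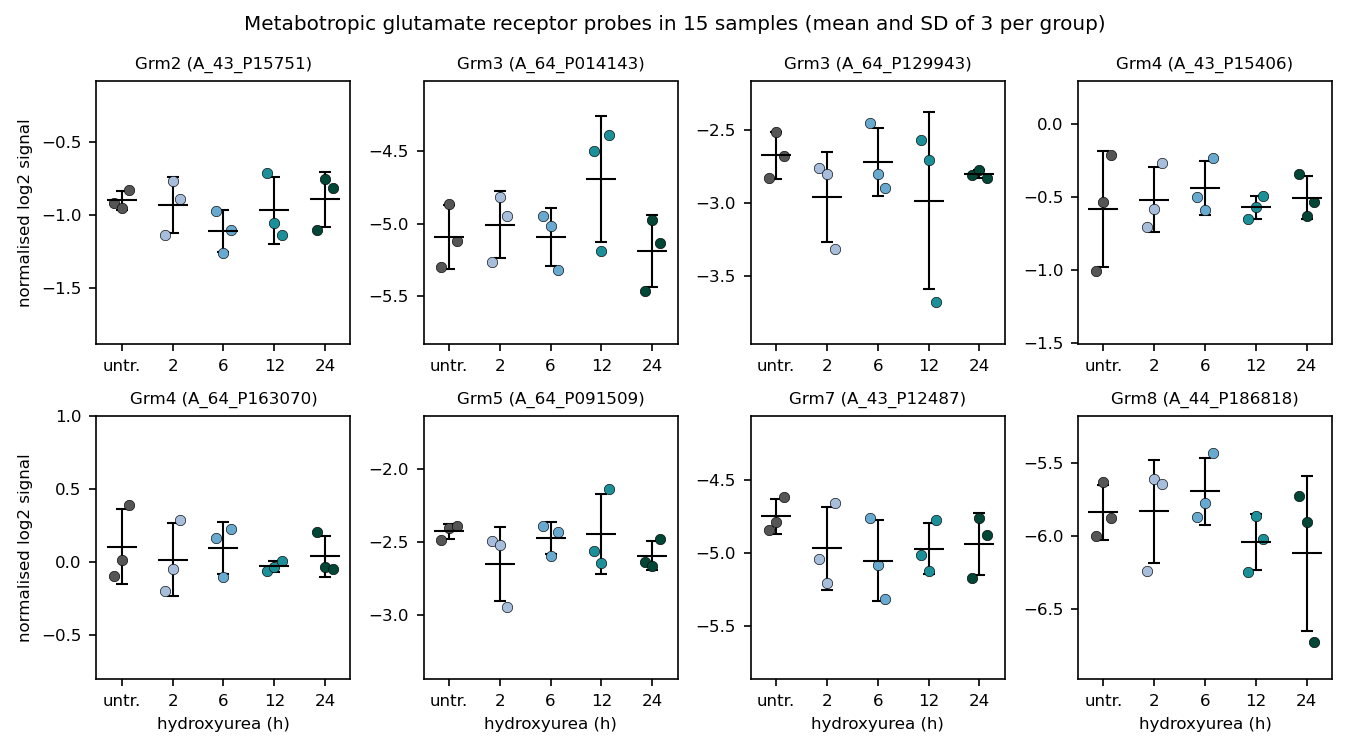
Normalised log2 signal of the 8 receptor probes (vertical axis, log2 relative to the array's 75th percentile, with the same span of 1.8 in every panel) in untreated cultures and after 2, 6, 12 and 24 h of hydroxyurea (horizontal axis). Points are samples in replicate order, and the black bars are the mean and SD of 3 samples. The groups overlap in nearly every panel, and the lowest Grm3 point (A_64_P129943) is HU 12 h replicate 3 at -3.68.

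The group I receptor mGluR5 did not pass the test at any time. Grm5 (NM_017012, probe A_64_P091509) stood at -2.49, -2.40 and -2.39 in untreated cultures, -2.49, -2.52 and -2.94 after 2 h, -2.39, -2.60 and -2.43 after 6 h, -2.56, -2.64 and -2.13 after 12 h and -2.64, -2.66 and -2.48 after 24 h. All 3 samples at 2 h lay below all 3 untreated ones, though the highest of them, at -2.489, came close to the lowest untreated one, at -2.486, and the groups overlapped at every other time. Grm5 was 1 of 8 receptor probes separated in this way at 2 h, where 3.09% of all probes were separated downward. The difference at 2 h was -0.23 (SE 0.15, unadjusted p 0.154 and adjusted p 1.00 by limma), with a 95% interval of -0.55 to 0.096. It was -0.080 without HU 2 h replicate 3, the sample at -2.94. At 12 h the single sample that stood high, at -2.13, was HU 12 h replicate 3, and the difference of -0.019 became -0.18 without it. Over the 4 times Grm5 averaged -2.54 ± 0.19 in HU cultures (SD, n = 12) and -2.43 ± 0.053 in untreated cultures (SD, n = 3), a difference of -0.11 (SE 0.12). On slide 1 alone that difference was -0.11 and on slide 2 alone -0.12. It became 0.028 when background was corrected with normexp, a model-based method, so its sign rested on that choice.

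Grm2 and Grm3, the group II receptors, lower cyclic AMP and restrain glutamate release, and mGluR3 is also activated by the peptide NAAG. Grm2 (NM_001105711, probe A_43_P15751) stood at -0.92, -0.95 and -0.83 in untreated cultures, -1.14, -0.77 and -0.89 after 2 h, -0.97, -1.26 and -1.10 after 6 h, -0.71, -1.05 and -1.14 after 12 h and -1.11, -0.75 and -0.82 after 24 h. All 3 samples at 6 h were below all 3 untreated ones, and HU samples at the other times lay on both sides of them. At 6 h Grm2 was the 1 of 8 receptor probes so separated, where 2.40% of all probes were separated downward. The 6 h difference was -0.21 (SE 0.14, unadjusted p 0.167 and adjusted p 1.00 by limma). At 2, 12 and 24 h the differences were -0.032, -0.068 and 0.0079, each smaller than its SE of 0.14, and the 12 h one was 0.018 without HU 12 h replicate 3. Over the 4 times Grm2 averaged -0.98 ± 0.18 in HU cultures (SD, n = 12) and -0.90 ± 0.064 in untreated cultures (SD, n = 3). The difference was -0.076 (SE 0.11), and it was -0.014 on slide 1 alone and -0.080 on slide 2 alone.

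Grm3 was read by 2 probes with different accessions, and they did not move together. The probe of NM_001105712 (A_64_P129943) stood at -2.83, -2.51 and -2.68 in untreated cultures, -2.76, -2.80 and -3.31 after 2 h, -2.45, -2.80 and -2.89 after 6 h, -2.56, -2.71 and -3.68 after 12 h and -2.81, -2.77 and -2.83 after 24 h. The low value at 12 h belongs to HU 12 h replicate 3, and every HU group overlapped the untreated one. Its differences were -0.29, -0.044, -0.31 and -0.13 at 2, 6, 12 and 24 h (SE 0.24). Without HU 2 h replicate 3, the sample at -3.31, the 2 h difference was -0.11. Without HU 12 h replicate 3 the 12 h difference was 0.036, and the mean of the 4 times was -0.11 in place of -0.19. With normexp that mean was -0.079. On slide 1 alone it was -0.038 and on slide 2 alone -0.29.

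The other Grm3 probe (A_64_P014143, from the predicted transcript XM_008762682, with 1 spot on the array) gave the smallest unadjusted p of any receptor probe. It stood at -5.30, -4.86 and -5.12 in untreated cultures, -5.26, -4.82 and -4.95 after 2 h, -4.95, -5.02 and -5.32 after 6 h, -4.50, -5.19 and -4.39 after 12 h and -5.46, -4.98 and -5.13 after 24 h. At 12 h 2 of 3 samples lay above all untreated ones, and the remaining sample lay among them. The 12 h difference was 0.40 (SE 0.21, unadjusted p 0.0779 and adjusted p 0.997 by limma), with a fold interval of 0.965 to 1.81. Without HU 12 h replicate 3 it was 0.25 (unadjusted p 0.279 by limma). In HU 12 h replicate 3 this probe was the highest of its 15 samples at -4.39, while A_64_P129943 was the lowest of its own at -3.68. Over 15 samples Pearson's r between the 2 probes was -0.31 and Spearman's rho 0.17 (permutation p 0.264 and 0.540, adjusted over 2 such pairs 0.264 and 0.540). The r was 0.28 without HU 12 h replicate 3 and 0.13 without the 2 samples farthest from the median of A_64_P014143, and it was 0.55 over the 8 arrays of slide 1 and -0.81 over the 8 of slide 2. The 2 probes did not give a common Grm3 profile across these samples.

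Of the group III receptors, mGluR4 (Grm4) is a presynaptic receptor best known from cerebellar parallel fibres. Both of its probes match NM_022666. Probe A_64_P163070 stood at -0.092, 0.015 and 0.40 in untreated cultures, -0.19, -0.042 and 0.29 after 2 h, 0.17, -0.10 and 0.23 after 6 h, -0.062, -0.031 and 0.012 after 12 h and 0.21, -0.030 and -0.047 after 24 h. Probe A_43_P15406 stood at -1.002, -0.53 and -0.21 in untreated cultures, -0.70, -0.58 and -0.26 after 2 h, -0.50, -0.58 and -0.23 after 6 h, -0.65, -0.57 and -0.49 after 12 h and -0.34, -0.63 and -0.53 after 24 h. The groups overlapped on both probes at every time, and untreated replicate 3 was the highest of the 15 samples on each. Across samples the 2 probes ran in parallel, with Pearson's r 0.84 and Spearman's rho 0.90 (n = 15, permutation p 2e-05 and 3e-05, adjusted over 2 such pairs 4e-05 and 6e-05). The r was 0.92 without untreated replicates 1 and 3, the 2 samples farthest from the median of A_43_P15406, and it was 0.42 over the 8 arrays of slide 1 and 0.94 over the 8 of slide 2.

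For Grm4 the sign of the treatment difference was not settled. Over the 4 times it was -0.073 (SE 0.12) on A_64_P163070 and 0.076 (SE 0.14) on A_43_P15406. At 12 h A_43_P15406 differed by 0.013, and by -0.025 without HU 12 h replicate 3. Its value over the 4 times rested on 1 array, because A_43_P15406 read -1.50 on the slide 1 array of untreated replicate 1 and -0.50 on that sample's slide 2 array. With the slide 2 array alone standing for the sample, the difference on A_43_P15406 was -0.090, and with the slide 1 array alone it was 0.24. Within slide 1 it was 0.43 and within slide 2 -0.021, against 0.0033 and -0.015 on A_64_P163070.

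Grm7, a presynaptic receptor with low affinity for glutamate that sits in the active zone, had the largest mean difference of the 8 probes over the 4 times. Grm7 (NM_031040, probe A_43_P12487) stood at -4.84, -4.79 and -4.61 in untreated cultures, -5.04, -5.20 and -4.65 after 2 h, -4.75, -5.08 and -5.31 after 6 h, -5.01, -5.12 and -4.77 after 12 h and -5.17, -4.75 and -4.88 after 24 h. Of the 12 HU samples 8 lay below all 3 untreated ones, 2 at each time, and 0 lay above them. The same count was 8 below and 1 above for Grm5, and 7 below and 4 above for Grm2. On the remaining receptor probes 0 to 4 of 12 lay below. The share of all probes with such a count is not given here. Grm7 averaged -4.98 ± 0.21 in HU cultures (SD, n = 12) and -4.75 ± 0.12 in untreated cultures (SD, n = 3). The differences were -0.22, -0.30, -0.22 and -0.19 at 2, 6, 12 and 24 h (SE 0.18), and -0.23 in the mean (SE 0.14). The mean difference had an unadjusted p of 0.117 and an adjusted p of 1.00 by limma, and its interval of -0.53 to 0.066, or 0.692 to 1.05 as a fold, includes no difference. It was -0.14 on slide 1 alone and -0.27 on slide 2 alone. With normexp it was -0.016 and the 24 h difference was then 0.010.

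Grm8, a presynaptic receptor with high affinity for glutamate, was the only one of the 6 not well above background everywhere. Grm8 (NM_022202, probe A_44_P186818) stood at -6.00, -5.63 and -5.88 in untreated cultures, -6.24, -5.61 and -5.64 after 2 h, -5.87, -5.77 and -5.43 after 6 h, -6.24, -5.86 and -6.02 after 12 h and -5.72, -5.91 and -6.72 after 24 h. The lowest value, at 24 h, is replicate 3, where the probe was not well above background, and the HU and untreated groups overlapped at every time. The differences were 0.0049, 0.14, -0.21 and -0.28 at 2, 6, 12 and 24 h, against an SE of 0.24. Without HU 24 h replicate 3 the 24 h difference was 0.020. The mean of the 4 times, -0.086 (SE 0.19), was -0.29 on slide 1 alone, 0.16 on slide 2 alone and 0.18 with normexp, so its sign rested on the slide and on the background correction.

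**Figure D2:**
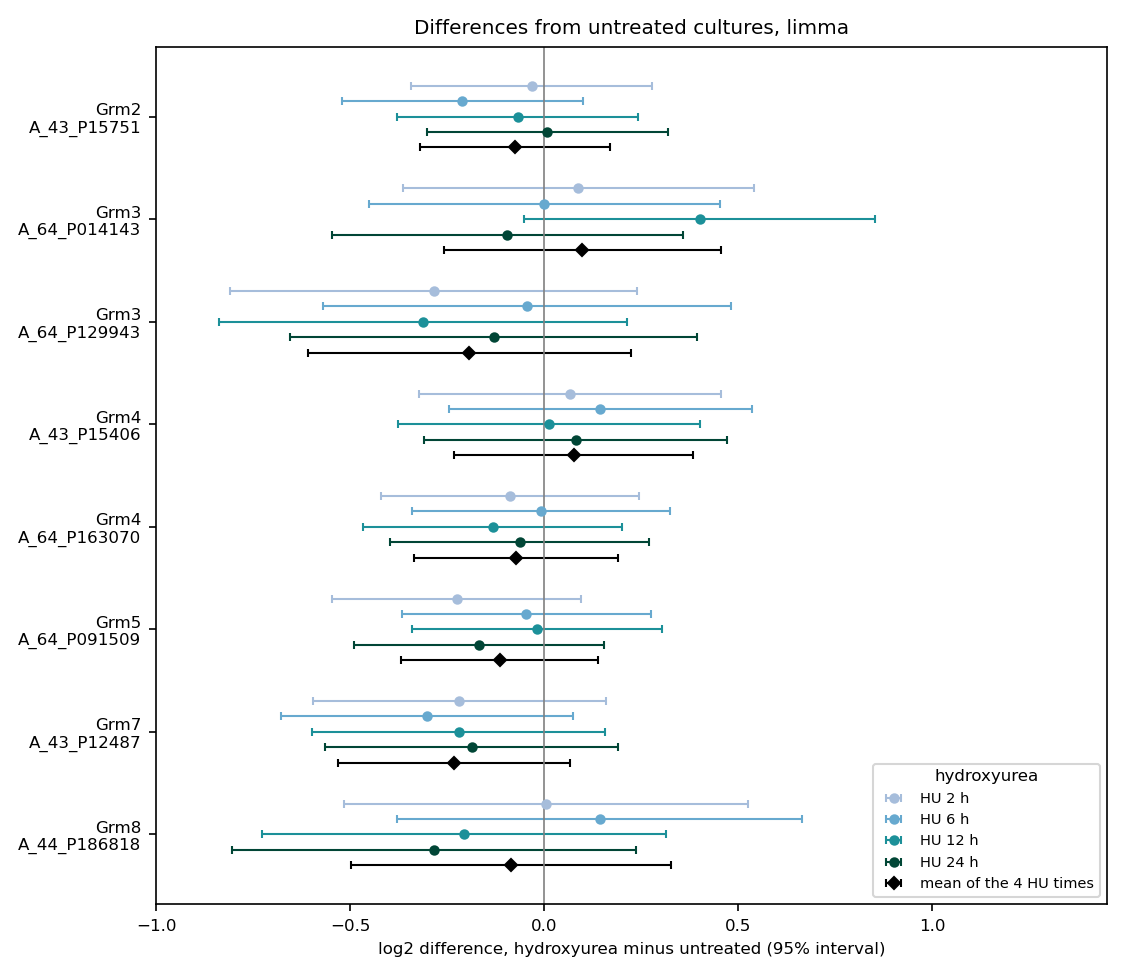
Log2 difference from untreated cultures (horizontal axis, HU minus untreated) with its 95% interval from limma, for each receptor probe (rows). Circles are the 4 times and diamonds are the mean of the 4 times. All 40 intervals include 0, and the mean differences of Grm7 and of Grm3 probe A_64_P129943 lie farthest from 0, at -0.23 and -0.19.

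More receptor probes had a lower mean than a higher one in HU cultures, without any of them passing the test, and not under every setting. At 2 h 5 of 8 probes had a lower mean, where 50.1% of all probes did. At 6, 12 and 24 h it was 6 of 8 each time, where 52.4%, 44.5% and 45.8% of all probes did, and in the mean of the 4 times it was 6 of 8, where 49.4% did. These counts depended on the processing and on single samples. With normexp they were 4, 3, 4 and 2 of 8 at 2, 6, 12 and 24 h and 4 of 8 in the mean of the 4 times, and with a standard score per array the count in the mean was 7 of 8. On slide 1 alone 3 of 8 were lower at 6 h, and on slide 2 alone 2 of 8 at 2 h. Leaving out untreated replicate 1 made the count in the mean 8 of 8, leaving out untreated replicate 2 or 3 made it 5 of 8, and without HU 2 h replicate 1 the count at 2 h was 3 of 8. The median receptor difference was -0.060, -0.026, -0.10 and -0.11 at 2, 6, 12 and 24 h and -0.081 in the mean. With normexp it was 0.073 at 12 h and 0.0059 in the mean. Leaving out 1 sample at a time, the median in the mean of the 4 times ran from -0.16 without untreated replicate 1 to -0.048 without HU 2 h replicate 1, and without the second of these the 2 h median was 0.045. Over all probes the medians as first given were -4.2e-04, -0.0054, 0.022, 0.012 and 0.0014. Beyond Grm5 at 2 h and Grm2 at 6 h, no receptor probe had all HU samples below all untreated ones, which held for 0 of 8 at 12 h (2.03% of all probes) and at 24 h (1.67%). Likewise 0 of 8 lay above all untreated samples at 2, 6, 12 or 24 h, where 3.18%, 1.49%, 3.14% and 1.36% of all probes did. For 0 of 8 probes did all 12 HU samples lie below the untreated ones (0.0296% of all probes) or above them (0.0345%).

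The intervals give the sizes of difference that these arrays leave possible. In the mean of the 4 times the 95% intervals of the 8 probes ran from a fold of 0.656 at the lowest to 1.37 at the highest. At single times they ran from 0.560 to 1.81, both at 12 h. These ends belong to the Grm3 probes, and each probe has its own interval. In the mean of the 4 times it was 0.792 to 1.14 for Grm4 probe A_64_P163070 and 0.708 to 1.25 for Grm8.

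No receptor passed a test of the 4 treatment times against one another. In limma's moderated F test among them the unadjusted p was 0.149 for Grm3 probe A_64_P014143, the lowest of the 8, and 0.924 for Grm7, the highest, with all adjusted p at 1.00. Without HU 12 h replicate 3 the p of A_64_P014143 was 0.479. Over all probes 1.14% had an unadjusted p under 0.05 and 0% passed. The order of group means differed from probe to probe. Untreated cultures were highest for Grm5, Grm7, Grm3 probe A_64_P129943 and Grm4 probe A_64_P163070, and lowest for Grm4 probe A_43_P15406. The range of the 5 group means was 0.13 to 0.50 over the 8 probes, against a mean SD within groups of 0.16 to 0.30. Of 32 gaps between neighbours in these orders 30 were within the larger of the 2 SDs. The exceptions were Grm8, where untreated cultures stood 0.21 above the 12 h group, and Grm5, where the 6 h group stood 0.12 above the 24 h group.

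On a few arrays the paired spots of a receptor probe disagreed widely. Of the 8 probes 6 have 2 spots on each array, and the median difference between the spots of a probe was 0.045 for Grm5, 0.070 for Grm2, 0.074 for Grm4 and 0.076 for Grm3. It was 0.16 for Grm7 and 0.20 for Grm8. 4 gaps were far wider than these, and the scanner software had marked none of those spots as outliers. On the array of HU 12 h replicate 3 the spots of Grm2 differed by 1.53 and those of Grm3 by 1.39. The spots of Grm4 differed by 2.34 on the slide 1 array of untreated replicate 1, and those of Grm8 by 1.46 on the array of HU 24 h replicate 3. These are the arrays on which Grm3 probe A_64_P129943, Grm4 probe A_43_P15406 and Grm8 gave their lowest values. The other probes of Grm3 and Grm4, with 1 spot each, were not at their lowest there. The first 2 arrays are those with the widest spot variation over all probes.

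**Figure D3:**
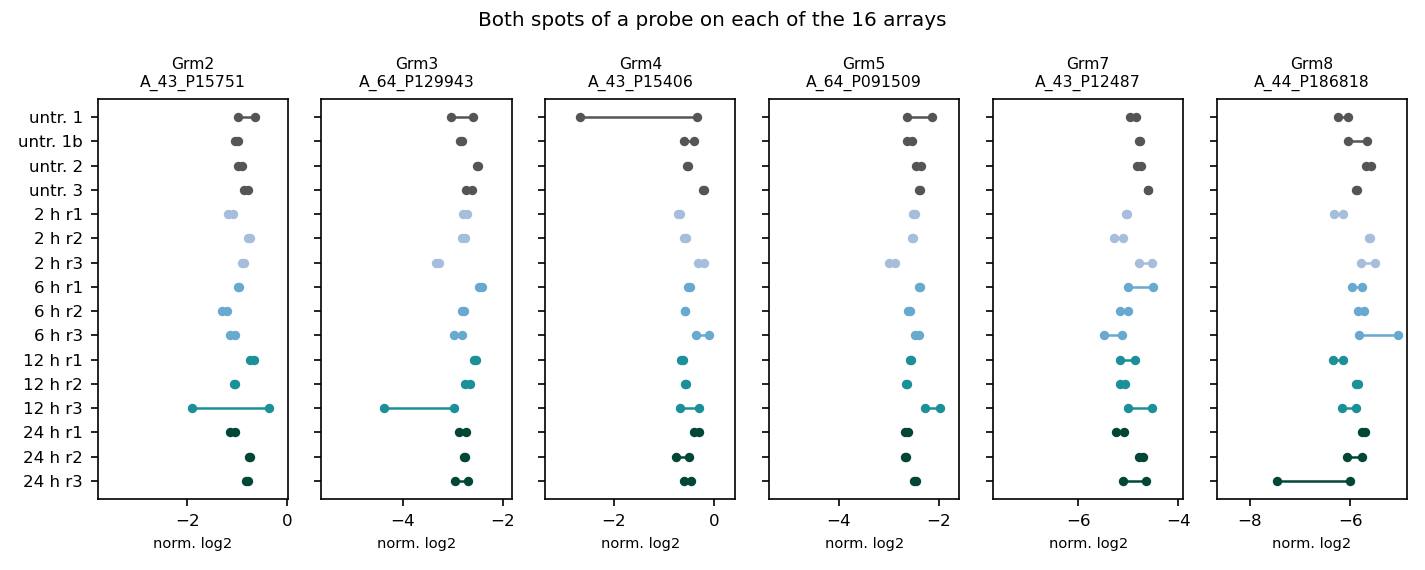
Normalised log2 signal (horizontal axis) of both spots of the 6 receptor probes that have 2, joined by a line, on each of the 16 arrays (rows, untreated at the top and 24 h at the bottom; 1b is the slide 2 array of untreated replicate 1). Most pairs nearly coincide, and 4 pairs are 1.39 to 2.34 apart.

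No pair of receptors was correlated across samples past the threshold. With 1 probe for each gene, the one with the higher mean, Pearson's r was positive in 6 of 15 receptor pairs and ran from -0.24 to 0.46 over the 15 samples, with a median of -0.080. The highest was Grm4 with Grm8 (r 0.46, rho 0.50, permutation p 0.0852 and 0.0602, adjusted over 15 pairs 0.870 and 0.803). It was 0.51 without the 2 samples farthest from the Grm4 median, 0.31 over the arrays of slide 1 and 0.49 over those of slide 2. For 0 of 15 pairs did the adjusted p reach 0.05. Grm3 with Grm5 changed most with 1 sample, from r -0.080 over all 15 to 0.74 over the 14 without HU 12 h replicate 3, in which Grm3 was lowest and Grm5 highest.

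The named genes whose profile was most like each receptor's, by Pearson's r over the 15 samples among 10088 named genes (10089 for Grm8), are given as a description with no test. For Grm2 they were Zfp592, Il2rg and Ocln (r 0.91, 0.90 and 0.89). For Grm3 they were Mier1, Magt1 and Lysmd3 (0.92, 0.90 and 0.89), and these were 0.81, 0.72 and 0.72 without HU 12 h replicate 3. Grm4 was most like Zbtb7c, Mvd, an enzyme of cholesterol synthesis, and Trib3 (0.92, 0.91 and 0.90). Grm5 was most like Crebl2, Znrf2 and Rab3gap2 (0.86, 0.83 and 0.82), and these were 0.77, 0.77 and 0.72 without HU 12 h replicate 3. For Grm7 the values were 0.83, 0.81 and 0.80 with Mdc1, Mical3 and Klhdc10, and for Grm8 they were 0.87, 0.77 and 0.77 with Sstr1, a somatostatin receptor, Emp1 and Atp5po. The points share arrays and scaling, and the highest of so many values is high in part through the choice.

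No signalling partner of mGluR5 passed the test. Of 21 listed genes of the Gq and Homer pathway 19 were tested, and 0 passed in any comparison. In the mean of the 4 times 10 were higher and 9 lower, with a median difference of 0.0079, beside 0.0014 over all probes. Dgkz, a kinase that removes diacylglycerol, was among the genes with the smallest p-values. It averaged -1.97 in HU cultures and -2.14 in untreated cultures, a difference of 0.16 (SE 0.15). Homer1, the scaffold that ties mGluR5 to the postsynaptic density, differed by 0.0079 (SE 0.12) and Gnaq, the Gq alpha subunit, by -0.0023 (SE 0.19). Homer1 and Gnaq, and Arc in what follows, were named after their values were seen.

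None of the Gi/o and cyclic AMP genes that serve group II and III receptors passed the test. All 23 on the arrays were tested, with 15 higher and 8 lower in the mean of the 4 times and a median difference of 0.028. Kcnj6, a potassium channel subunit opened by G protein beta-gamma subunits, averaged -4.48 in HU cultures and -4.25 in untreated cultures, a difference of -0.23 (SE 0.12, unadjusted p 0.0733 by limma). At 12 h it differed by -0.38 and at 24 h by -0.34 (SE 0.15), with unadjusted p-values of 0.0240 and 0.0416 by limma and adjusted p-values of 0.997 and 1.00. Gnao1, the Go alpha subunit, differed by 0.19 (SE 0.17).

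Among proteins that bind the receptors or carry them, 0 of 15 tested genes passed, with 5 higher and 10 lower in the mean of the 4 times (median -0.0069). Elfn2, a postsynaptic adhesion protein that binds group III receptors, differed by 0.087 (SE 0.11), while its relative Elfn1 was well above background on 6 of 16 arrays and was not tested. Of 15 genes of receptor-dependent depression and translation 6 were higher and 9 lower (median -0.023), and 0 passed. Fxr1, an RNA-binding relative of the fragile X protein, differed by 0.23 (SE 0.13) and the immediate early gene Egr1 by -0.19 (SE 0.15). Arc, which drives removal of AMPA receptors after mGluR5 activation, differed by -0.023 (SE 0.090).

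Genes that supply or remove the receptors' agonists were tested for 13 of 17 listed, with 7 higher and 6 lower in the mean of the 4 times (median 0.021) and 0 passing. Slc1a2, the glial glutamate transporter GLT-1, averaged -0.49 in HU cultures and -0.81 in untreated cultures, a difference of 0.33 (SE 0.14, unadjusted p 0.0345 and adjusted p 1.00 by limma). Slc17a6, the vesicular glutamate transporter VGLUT2, differed by -0.12 (SE 0.10). Slc17a8 and Naalad2, an enzyme of the family that cleaves NAAG, were well above background on 0 of 16 arrays.

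Slc1a2 is also an astrocyte marker, and most astrocyte markers had a higher mean in HU cultures without passing the test. Of 9 tested markers 8 were higher and 1 lower over the 4 times, with a median of 0.11, beside 0.0014 over all probes. By limma 0 of the 9 passed, and 2 had an unadjusted p under 0.05, both higher. Over all probes 1.38% were higher and 0.276% lower at that threshold. Aldoc, a glycolytic enzyme of astrocytes, gave the largest difference, 0.45 (SE 0.14, unadjusted p 0.00639 and adjusted p 1.00 by limma). The linear signal summed over the list, in units of the array's 75th percentile, ran from 138.26 to 176.70 in the 12 HU samples. In the 3 untreated ones it ran from 111.92 to 138.20. The brightest probes weigh most in such a sum, and the lowest HU sum lay close to the highest untreated one. Without HU 12 h replicate 3 the highest HU sum was 156.72. Neuron markers were 5 higher and 4 lower, with a median of 0.0027 and a summed signal of 100.89 to 145.91 in HU samples and 110.30 to 119.15 in untreated ones, the highest HU sum being 133.60 without HU 12 h replicate 3. Of the other lists, pyramidal markers were 3 higher and 4 lower, GABAergic interneuron markers 1 higher and 9 lower, and radial glia markers 3 higher and 3 lower. Oligodendrocyte lineage markers were 5 higher and 4 lower, and microglia markers 5 higher and 1 lower. Endothelial markers were 2 higher and 1 lower, and fibroblast and pericyte markers 0 higher and 6 lower, with 0 passing in any list. Beside the counts of all these lists, 49.4% of all probes had a lower mean over the 4 times. The part of any of these cell types in the receptor values was not tested.

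**Figure D4:**
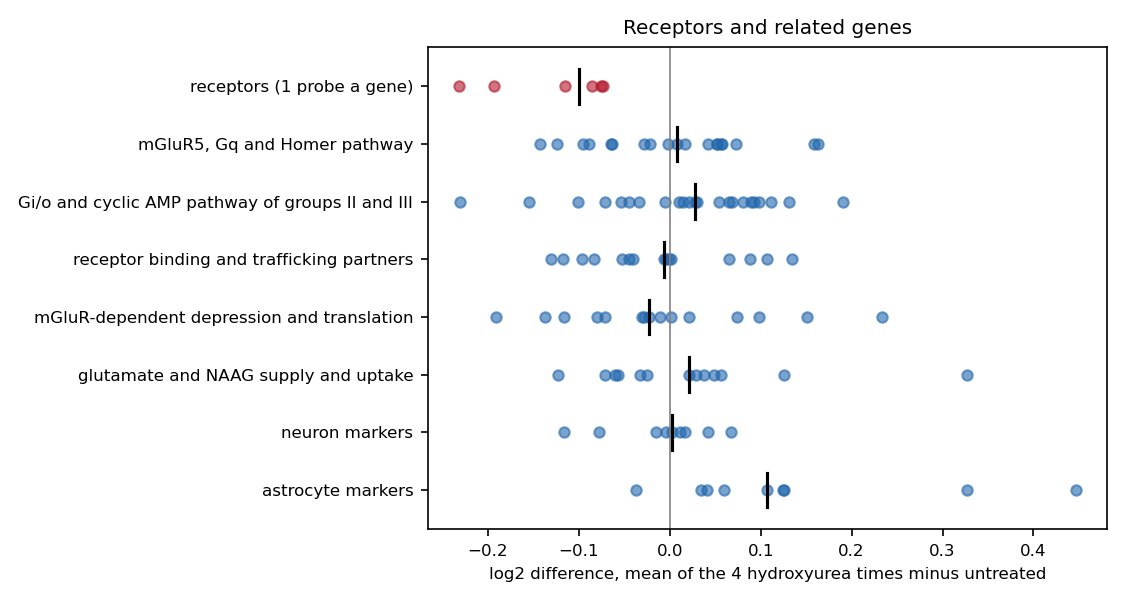
Log2 difference between the mean of the 4 HU times and untreated cultures (horizontal axis) for each receptor (top row, 1 probe a gene) and each tested gene of 5 related lists, the neuron markers and the astrocyte markers. Points are genes and black bars are medians. The 6 receptor points, each from the probe with the higher mean, lie left of 0, with a median of -0.10. The other Grm3 and Grm4 probes, at 0.098 and 0.076, would lie right of it, as would Grm5 and Grm8 with normexp, and 8 of 9 astrocyte points lie right of it.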

How the data were processed

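The scanner files, as deposited, give each spot's intensity; per the file headers it was read with Agilent Feature Extraction 11.5.1.1, which subtracted background and did not scale arrays to one another. The authors' deposited series values are a standard score per array, checked against the scanner files, and were used only as an alternative. The columns of HU 24 h replicates 1 and 3 in that table matched each other's scanner file, and the scanner files were used as labelled. No coordinates and no sequences are given, because probe sequences were not in the files used here.

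Of 62976 spots per array, 4259 were controls and were dropped, as were spots flagged as outliers, and spots of a probe were averaged as log2. Each array was scaled to its 75th percentile. Accessions were matched without versions to RefSeq gene symbols (18758 of 30367 probes). A probe was tested if well above background, on more of its spots than not, on every array of at least 1 group. limma 3.58.1 in R 4.3.3 fitted all 15 samples at once with 10 residual and 3.61 prior degrees of freedom and no covariate, two-sided, with Benjamini-Hochberg adjustment within each comparison. The fit was tested on simulated data. For correlations, permutation p-values used 1e+05 resamples (scipy 1.17.1). For lists, each gene was read on its probe with the highest mean. In each list up to 4 genes with the smallest unadjusted p in the mean of the 4 times were named, and for each receptor the 3 genes with the highest r; a gene that this rule picks is not reported here. The receptors and the lists were chosen with earlier results of these data known.

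Alternatives were other background correction and scaling, the deposited scores, other filters, 1 probe per gene, slide as a block or each slide alone, the replicate block (also on the deposited scores), either array of untreated replicate 1, and leaving out each sample.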

Additional observations from a re-analysis of the deposited data

How the results depend on the processing

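Each of 40 receptor differences was recomputed under up to 29 alternatives. None of these values passed, and the lowest adjusted p was 0.537. The sign held in 1046 of these values and turned in 99, and 11 of the 40 differences never turned. Many of the held signs could not have turned, so their number does not measure stability. The other filters, 1 probe per gene and the replicate block leave each fitted difference as it was. Leaving out an HU sample leaves the differences at the other single times unchanged. The replicate block on the deposited scores repeats the differences of those scores. None of the 40 was past the threshold at the start, so a turned sign ended no call. The cause of each turn was not tested. The number of probes passing was 0 under every alternative and comparison but 1: on slide 1 alone at 12 h 4 probes passed, none of them a receptor. That comparison has 1 HU sample. So do 24 h on slide 1 and 2 h and 6 h on slide 2, and in these fits the single sample takes its error from the spread within the remaining groups. Normexp, run on median spot signals and added after seeing the data, gave a median of all probes of 0.11 at 12 h, against 0.022 otherwise. Replicate numbers were not taken to pair samples, because the labels give no shared source and not every same-numbered pair had deviations correlated over 0.1. That held for 19 of 30 same-numbered pairs (median r 0.13) and 11 of 60 others (median -0.083), and 7 of 15 samples correlated best with their own number. In the authors' deposited scores, whose columns of HU 24 h replicates 1 and 3 match each other's scanner file, it held for 20 of 30 and 7 of 60, and 14 of 15 samples correlated best with their own number, a hint of pairing from the data and not from the design. The replicate block left 0 probes passing in every comparison. It could turn no sign, because each replicate number occurs once in each group and the block leaves the group differences as they were. On the deposited scores, a fit added after seeing the data, it also left 0 passing, with a lowest adjusted p of 0.924 among receptor probes. The number of arrays limits the precision. The dim probes, those of Grm8 and Grm7 and Grm3 probe A_64_P014143, averaged -5.92, -4.98 and -5.00 in HU cultures. Over the 4 times their SEs were 0.19, 0.14 and 0.17. Those of the other receptor probes ran from 0.11 for Grm2 to 0.19 for Grm3 probe A_64_P129943. The part of dim signal in the precision was not tested.

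The log2 differences from untreated (HU minus untreated) whose sign turned were these. With normexp background correction, Grm2 was 6.8e-04 at 2 h, Grm3 A_64_P014143 was 0.16 at 6 h and 0.040 at 24 h, Grm3 A_64_P129943 was 0.022 at 6 h, Grm5 was 0.051 at 6 h, 0.15 at 12 h, 0.0020 at 24 h and 0.028 over the 4 times, Grm8 was 0.20 at 12 h, 0.15 at 24 h and 0.18 over the 4 times and Grm7 was 0.010 at 24 h. With quantile normalisation, Grm8 was -0.016 at 2 h. With a standard score per array, Grm3 A_64_P014143 was -0.025 at 2 h and -0.0016 over the 4 times, Grm8 was -0.12 at 2 h, Grm4 A_43_P15406 was -0.011 at 12 h and Grm2 was -0.017 at 24 h. With the authors' deposited scores, with and without the replicate block, Grm3 A_64_P014143 was -0.021 at 2 h, Grm8 was -0.12 at 2 h, Grm4 A_43_P15406 was -0.0070 at 12 h and Grm2 was -0.021 at 24 h. With slide as a block, Grm4 A_64_P163070 was 0.030 at 6 h and Grm4 A_43_P15406 was -0.026 at 12 h. With slide 1 alone, Grm8 was -0.037 at 2 h, Grm3 A_64_P014143 was 0.10 at 6 h, Grm3 A_64_P129943 was 0.035 at 6 h and 0.096 at 12 h, Grm4 A_64_P163070 was 0.085 at 6 h, 0.0047 at 24 h and 0.0033 over the 4 times and Grm2 was 0.17 at 12 h. With slide 2 alone, Grm2 was 0.033 at 2 h and -0.0050 at 24 h, Grm4 A_64_P163070 was 0.13 at 2 h and 0.064 at 6 h, Grm7 was 0.041 at 2 h, Grm5 was 0.056 at 6 h and 0.10 at 12 h, Grm4 A_43_P15406 was -0.17 at 12 h, -0.13 at 24 h and -0.021 over the 4 times and Grm8 was 0.051 at 24 h and 0.16 over the 4 times. With only the slide 1 array of untreated replicate 1, Grm3 A_64_P014143 was 3.2e-04 at 6 h, Grm4 A_64_P163070 was 8.6e-04 at 6 h and Grm2 was -0.026 at 24 h. With only its slide 2 array, Grm2 was 0.0013 at 2 h, Grm4 A_43_P15406 was -0.10 at 2 h, -0.022 at 6 h, -0.15 at 12 h, -0.086 at 24 h and -0.090 over the 4 times, Grm8 was -0.043 at 2 h and Grm5 was 0.014 at 12 h.

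When each sample was left out in turn, some differences ranged across 0. Grm2 ran from -0.12 to 0.071 at 2 h, -0.20 to 0.018 at 12 h and -0.061 to 0.11 at 24 h. Grm3 A_64_P014143 ran from -0.015 to 0.21 at 2 h, -0.10 to 0.12 at 6 h, -0.20 to 0.041 at 24 h and -0.0039 to 0.21 over the 4 times. Grm4 A_43_P15406 ran from -0.14 to 0.25 at 2 h, -0.065 to 0.33 at 6 h, -0.20 to 0.20 at 12 h, -0.13 to 0.27 at 24 h and -0.13 to 0.26 over the 4 times. Grm4 A_64_P163070 ran from -0.22 to 0.057 at 2 h, -0.11 to 0.14 at 6 h, -0.23 to 0.012 at 12 h, -0.16 to 0.082 at 24 h and -0.17 to 0.072 over the 4 times. Grm8 ran from -0.11 to 0.21 at 2 h, -0.48 to 0.020 at 24 h and -0.17 to 0.017 over the 4 times. Grm3 A_64_P129943 ran from -0.18 to 0.046 at 6 h and -0.52 to 0.036 at 12 h. Grm5 ran from -0.087 to 0.015 at 6 h and -0.18 to 0.078 at 12 h.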
